A study of Mus musculus with 6 samples.

Results

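The genes described here are 10 modulators of the transforming growth factor beta (TGF-beta) and bone morphogenetic protein (BMP) pathways, out of 19938 genes measured. They are Crim1, Eng, Sparc, Ldlrad4, Smad7, Tgfbr1, Tgfbr2, Bmpr1a, Id1 and Id3, each read by its 1 probe set with a single gene symbol. The list was selected on the KO minus WT differences of these same arrays, which put Crim1, Eng, Sparc and Ldlrad4 on it, beside other genes of the pathway. Those differences are therefore given below as a description. The calls, intervals and adjusted p-values of the 10 genes are not corrected for that selection and are no independent test of a difference.

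RNA came from leukaemic mouse B cells of 3 gamma-catenin KO samples (Jup-/-) and 3 gamma-catenin WT samples (Jup+/+), 1 array each, all on the C57BL/6 background. Jup encodes gamma-catenin, or plakoglobin, a junction protein closely related to beta-catenin. In both groups CD45.1+ mice had received CD45.2+ fetal liver cells of the stated genotype, and marrow of these chimeras was then infected with a retrovirus encoding BCR-ABL1 and GFP and transferred to lethally irradiated CD45.1+ recipients. At day 21, cells positive for GFP, B220, BP-1 and CD45.2 were sorted from the bone marrow. BCR-ABL1 is thus expressed from a vector in marrow-derived cells, and neither the age of the animals nor any pooling of them is stated in the labels.

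Ligands of this superfamily bind pairs of type I and type II serine/threonine kinase receptors at the cell surface. The activated type I receptor phosphorylates receptor Smads, which join Smad4 and enter the nucleus, where TGF-beta signals act mainly through Smad2 and Smad3 and BMP signals through Smad1, Smad5 and Smad9. Co-receptors and ligand-binding proteins set how much ligand reaches the receptors, and inhibitory Smads are induced by the signal and shut it off again. In bone marrow, TGF-beta is known to restrain the growth of early B cells, and Id proteins, which are targets of the pathway, block the E proteins that B cell development needs.

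The values are log2 values from RMA, a procedure that corrects background, equalises arrays and summarises each probe set, so 1 unit is a doubling of signal. Array medians ran from 7.52 to 7.61, and the arrays resembled one another closely, with a Pearson correlation over probe sets (not independent of each other) of at least 0.991 for each pair. Jup itself averaged 7.13 ± 0.13 in KO and 8.06 ± 0.44 in WT (SD, n = 3 each) without overlap, but its difference missed the threshold (adjusted p = 0.171 in limma), and the sources do not say whether its probe set lies in the deleted part. The B cell identity was read from Cd79a, Cd79b, Pax5, Ebf1, Blnk, Vpreb1, Igll1, Ptprc and Enpep, whose mean level was 12.67 to 12.73 in KO arrays and 12.66 to 12.71 in WT arrays. In KO 5 were higher and 4 lower, from -0.23 for Enpep to 0.27 for Pax5, and 0 passed in limma. All KO arrays lay below all WT arrays for Enpep and above them for Ptprc (0.19), genes singled out after their values were seen. Enpep and Ptprc encode the sort markers BP-1 and B220, so they are no independent check of identity. WT replicate 2 stood apart: the X-inactivation RNA Xist was at 13.20 to 13.38 in KO arrays and at 13.10, 6.20 and 13.03 in WT replicates 1, 2 and 3, and the Y-linked Uty at 4.96 to 5.54 in KO arrays and at 5.41, 10.09 and 4.97 in WT arrays. That array thus carried RNA of male cells, and no KO array did. WT replicate 1 had the lowest median and the lowest mean of every marker list for other cell types except the T and NK cell list.

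Among the 10 genes, the 3 transcripts of proteins that act outside the cell or as co-receptors were lower in KO, as was that of 1 of the 2 inhibitors. These 4 genes were listed for their differences, so this pattern was set by the selection and is no result about their roles. Of 25 further extracellular binding proteins and activators, 11 were higher and 14 lower in KO. The TGF-beta receptors and the Id genes differed by 0.24 or less on the log2 scale, while the BMP receptor gene Bmpr1a was at -0.80 and the inhibitor gene Smad7 at 0.31, neither past the threshold. Crim1, Sparc, Eng and Ldlrad4 were the 4 genes that passed an adjusted p of 0.05 over all probe sets in limma, all toward lower expression in KO, and 6 did not pass. Over all 21789 probe sets 0.0688% passed in that direction, 0.0505% toward higher expression and 0.119% in either direction. The same 4 genes were the ones whose KO arrays all lay below the WT arrays, which held for 8.08% of all probe sets, while 5.94% had all KO arrays above the WT arrays. As this contrast was known when the genes were listed, neither count is read against its background. The median log2 difference of the 10 was -0.49, that of all probe sets -0.02.

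**Figure D1:**
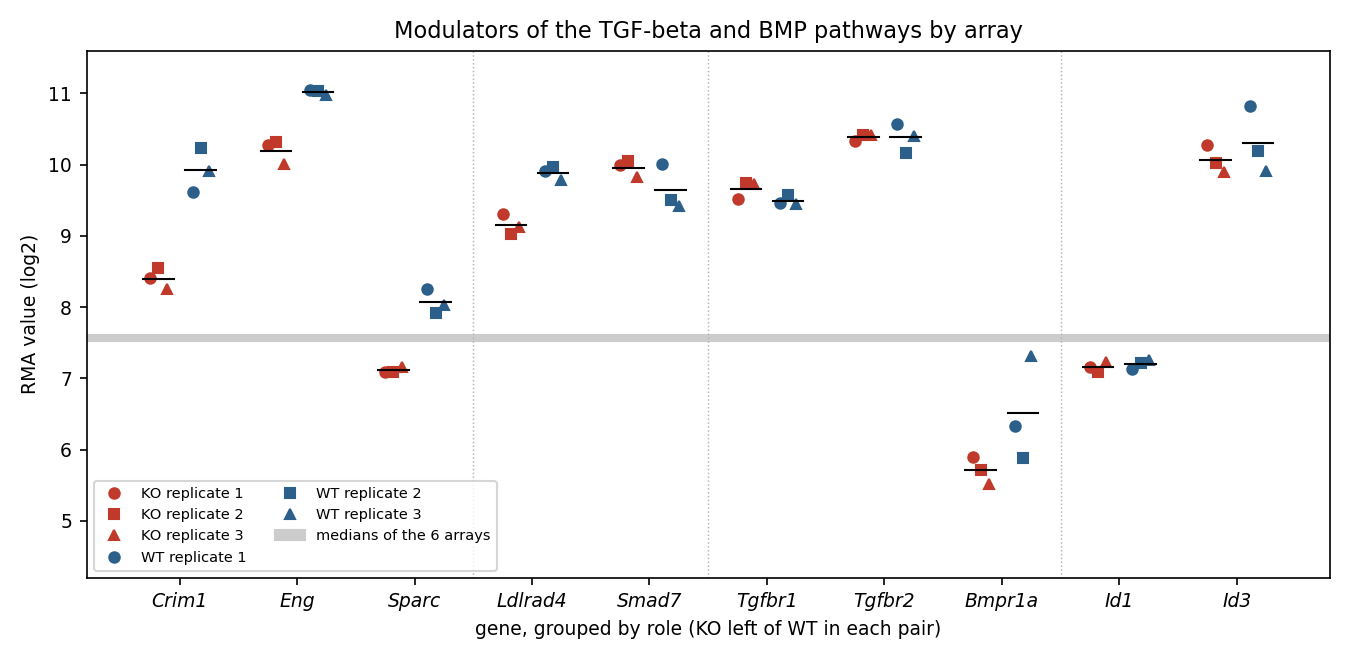
RMA values on the log2 scale (y axis) of the 10 genes (x axis), with KO arrays in red to the left of WT arrays in blue, replicates 1 to 3 as circle, square and triangle, group means as black bars, and the range of the array medians as a grey band. KO arrays lie below all WT arrays for Crim1, Eng, Sparc and Ldlrad4, and WT replicate 3 stands alone at 7.32 for Bmpr1a.

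Crim1 showed the largest difference of the 10 genes. It encodes a membrane protein with cysteine-rich repeats like those of chordin, which binds BMPs and limits their processing and delivery to the cell surface. Crim1 measured 8.41, 8.55 and 8.25 in KO replicates 1, 2 and 3, against 9.62, 10.23 and 9.91 in WT replicates 1, 2 and 3. The lowest WT array was still above the highest KO array by more than the range of either group. The log2 difference was -1.52 (SE 0.15, 95% interval -1.87 to -1.17), or 2.87-fold lower in KO.

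Eng encodes endoglin, a co-receptor of TGF-beta superfamily ligands that is best known from endothelial cells and is also found on some haematopoietic precursors. Eng measured 10.27, 10.32 and 10.005 in KO arrays, against 11.05, 11.04 and 10.97 in WT arrays. The WT arrays were nearly equal to one another (SD 0.04), and most of the spread was among KO arrays (SD 0.17). The log2 difference was -0.82 (SE 0.10, 95% interval -1.04 to -0.60), or 1.77-fold lower.

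Sparc encodes a collagen-binding matrix protein, also known as osteonectin, that affects matrix assembly and has been tied to TGF-beta signalling. Sparc measured 7.08, 7.09 and 7.15 in KO arrays, against 8.26, 7.92 and 8.02 in WT arrays. All KO arrays were below their array medians and all WT arrays above theirs. The log2 difference was -0.96 (SE 0.10, 95% interval -1.18 to -0.73), or 1.94-fold lower. RMA compresses differences among dim probe sets, and the KO values of Sparc lie in that range. Of its relatives, the 6 SPARC-related matrix genes, 0 passed in limma (0 also at an unadjusted p under 0.05), and their log2 differences ran from -0.16 for Sparcl1 to 0.08 for Spock3, with all 6 below the array median in all arrays.

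The promoters of these 3 genes are shown, as Ldlrad4, the other called gene, had no promoter in the RefSeq set. Each sequence runs from 250 bases before to 50 bases after the start of the RefSeq gene in assembly GRCm38.p6, on the strand of the gene. Capitals mark the core Smad motif, CAGAC or its reverse complement GTCTG. The Crim1 promoter is chr17:78199998-78200297 on the plus strand, that of Eng chr2:32646345-32646644 on the plus strand, and that of Sparc chr11:55420031-55420330 on the minus strand.
Crim1: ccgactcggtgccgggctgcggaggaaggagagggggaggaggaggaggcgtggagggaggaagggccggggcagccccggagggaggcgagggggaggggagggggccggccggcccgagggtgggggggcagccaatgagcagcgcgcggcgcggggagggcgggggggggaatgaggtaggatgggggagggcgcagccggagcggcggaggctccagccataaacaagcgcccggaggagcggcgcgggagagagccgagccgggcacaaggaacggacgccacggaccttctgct
Eng: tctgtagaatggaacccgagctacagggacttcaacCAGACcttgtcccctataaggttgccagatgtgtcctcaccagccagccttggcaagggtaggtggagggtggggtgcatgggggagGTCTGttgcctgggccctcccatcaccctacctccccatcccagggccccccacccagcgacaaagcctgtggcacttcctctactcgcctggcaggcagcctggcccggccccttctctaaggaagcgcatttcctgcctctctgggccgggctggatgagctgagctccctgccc
Sparc: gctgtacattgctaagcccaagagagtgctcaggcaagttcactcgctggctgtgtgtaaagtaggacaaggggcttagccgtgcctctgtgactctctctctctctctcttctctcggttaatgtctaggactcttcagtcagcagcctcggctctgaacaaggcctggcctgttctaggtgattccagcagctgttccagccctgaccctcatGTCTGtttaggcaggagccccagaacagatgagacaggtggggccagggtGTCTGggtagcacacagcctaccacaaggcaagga
The Eng window held 2 core Smad motifs, beginning at positions -214 and -127 from the start site, and the Sparc window 2, beginning at -35 and 16. The Crim1 window, which is 76.0% G and C, held 0. Of all 32851 RefSeq promoters of this length, 49.6% held the motif on either strand, so it is about as common as not. Also searched on both strands were GGCGCC, a core motif of BMP-type Smads that is its own reverse complement (11.9% of all promoters), and CTTTGA or TCAAAG, a core of TCF/LEF factors, the nuclear partners of catenins (16.0%). None of the 3 windows held either of these, and no searched motif overlaps another. Of the 10 genes 7 had a promoter in the RefSeq set, with 8 windows in all, since Tgfbr1 has 2 start sites. Ldlrad4, Smad7 and Id1 had no promoter there. Among the windows not printed, Id3 held 2 core Smad motifs, Tgfbr2 1, the second Tgfbr1 start 1 and Bmpr1a 0. Bmpr1a and the first Tgfbr1 start held 1 GGCGCC each. The core Smad motif was thus held by windows of Eng, Sparc, Id3, Tgfbr2 and Tgfbr1 (second start), called or not. Crim1 lacked it in this window, and Ldlrad4 could not be searched. Any part of these motifs in the differences was not tested.

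Of the 2 inhibitors of TGF-beta signalling, Ldlrad4 was lower in KO, while Smad7 did not pass. Ldlrad4, which encodes a membrane protein that binds receptor Smads and limits their activation, measured 9.31, 9.03 and 9.12 in KO arrays, against 9.91, 9.97 and 9.78 in WT arrays. Its log2 difference was -0.73 (SE 0.10, 95% interval -0.96 to -0.51), or 1.66-fold lower, without overlap between the groups. Its relative Pmepa1, likewise an inhibitor of Smad activation, had the opposite sign: it measured 9.43, 10.09 and 9.67 in KO arrays, against 9.51, 9.11 and 9.16 in WT arrays, which gives 0.47 on the log2 scale (SE 0.17) and did not pass (limma adjusted p = 0.452). For Pmepa1 the groups overlapped, since KO replicate 1 was below WT replicate 1.

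Smad7 encodes the inhibitory Smad that brings ubiquitin ligases to the type I receptor, and is itself switched on by TGF-beta. Smad7 measured 9.99, 10.05 and 9.83 in KO arrays, against 10.005, 9.51 and 9.42 in WT arrays. WT replicate 1 lay among the KO arrays and the other WT arrays below all of them. The log2 difference was 0.31 (SE 0.15, 95% interval -0.03 to 0.66) and did not pass. Leaving out WT replicates 1, 2 and 3 in turn gave 0.49, 0.245 and 0.20.

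The receptors did not pass in either direction. Tgfbr2, the type II receptor that binds TGF-beta, measured 10.34, 10.42 and 10.42 in KO arrays, against 10.58, 10.17 and 10.41 in WT arrays, a log2 difference of 0.01 (95% interval -0.24 to 0.25). All KO values lay inside the WT range. Tgfbr1, the type I receptor it activates, measured 9.52, 9.75 and 9.73 in KO arrays, against 9.46, 9.58 and 9.44 in WT arrays, a log2 difference of 0.17 (95% interval -0.03 to 0.37). KO replicate 1 lay below WT replicate 2, and the other 2 KO arrays were above all WT arrays. These intervals leave room for small changes of either receptor.

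Bmpr1a, a type I receptor for BMPs, was dim and uneven. It measured 5.90, 5.72 and 5.52 in KO arrays, against 6.33, 5.88 and 7.32 in WT arrays. All 6 values were below the array medians, and the groups overlapped by a small margin, KO replicate 1 against WT replicate 2. The log2 difference was -0.80 (SE 0.31, 95% interval -1.51 to -0.09), close in size to that of Eng, but the WT arrays spread widely (SD 0.73) and it did not pass. Much of it came from 1 array, since the difference was -0.39 without WT replicate 3 and -1.11 without WT replicate 2.

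Id1 and Id3 encode inhibitors of basic helix-loop-helix factors and are standard readouts of BMP signalling. Id1 was below the array medians and nearly flat, at 7.15, 7.09 and 7.24 in KO arrays, against 7.13, 7.22 and 7.26 in WT arrays. Its log2 difference was -0.04 (SE 0.08, 95% interval -0.22 to 0.14). Id3 was bright and varied within groups, at 10.27, 10.02 and 9.90 in KO arrays, against 10.82, 10.19 and 9.92 in WT arrays. Its log2 difference of -0.24 (SE 0.21, 95% interval -0.73 to 0.24) rested on WT replicate 1, without which it was 0.015. WT replicate 1 was the highest WT array for Id3, Smad7, Tgfbr2, Sparc and, by a small margin, Eng, and the lowest for Crim1 and Id1.

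**Figure D2:**
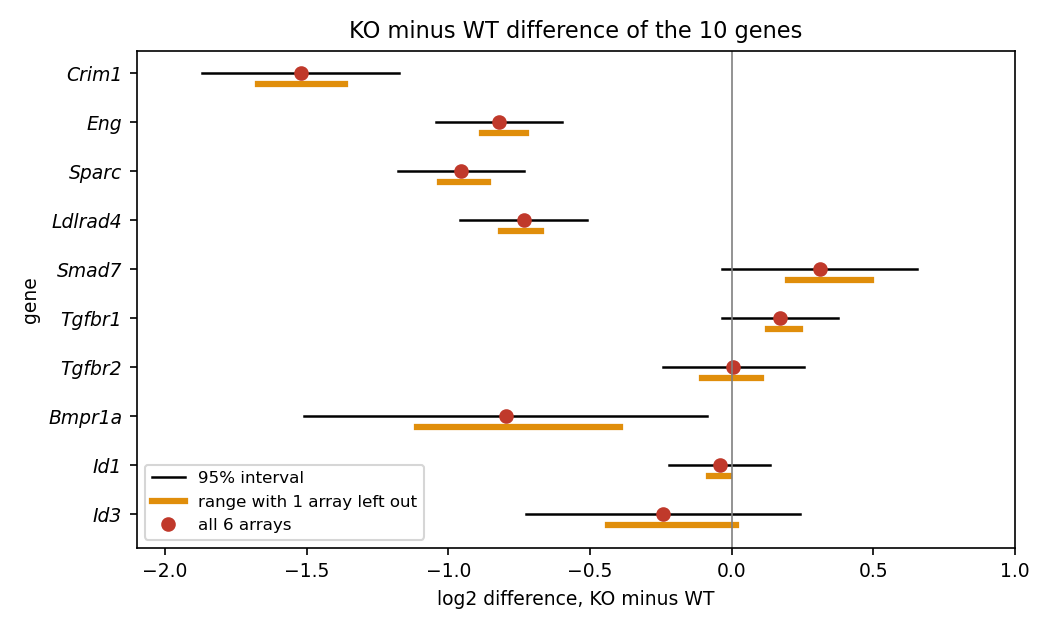
Log2 difference, KO minus WT (x axis), of each of the 10 genes (y axis), with all 6 arrays (red point) and its 95% interval from limma (black line), and the range when 1 array at a time is left out (orange line). The orange ranges of Crim1, Eng, Sparc, Ldlrad4 and Bmpr1a stay below 0, as does that of the nearly flat Id1 (-0.079 to -0.008). Those of Smad7 and Tgfbr1 stay above 0, and those of Tgfbr2 and Id3 cross 0.

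The calls of the 4 lower genes depended on the arrays used. With all KO arrays below all WT arrays, leaving out 1 array cannot turn the sign of any of them. Crim1 ran from -1.67 to -1.37, Sparc from -1.03 to -0.86, Eng from -0.88 to -0.725 and Ldlrad4 from -0.815 to -0.67 over the 6 fits with 1 array left out. All 4 passed without KO replicate 1. With WT replicate 1 left out the 2 that passed were Crim1 and Sparc, as also with WT replicate 2, the array of male cells, left out. With KO replicate 2, KO replicate 3 or WT replicate 3 left out, 0 passed in limma, and the adjusted p of Crim1 was then 0.0561, 0.11 and 0.0627.

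Around these genes, 108 further genes of the pathway and of the SPARC family were listed by role, of which 103 were measured and 5 are not analysed here. In limma 0 of the 103 passed over all probe sets, and 10 had an unadjusted p under 0.05, 7 higher and 3 lower, which is 9.71%, against 9.22% of all probe sets (4.48% higher and 4.73% lower). For 16 of them, or 15.5%, all KO arrays lay on one side of all WT arrays, against 14.0% of all probe sets. Both shares are near those of all probe sets. Their median log2 difference was -0.02, the same as that of all probe sets, and 47 were higher and 56 lower in KO.

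**Figure D3:**
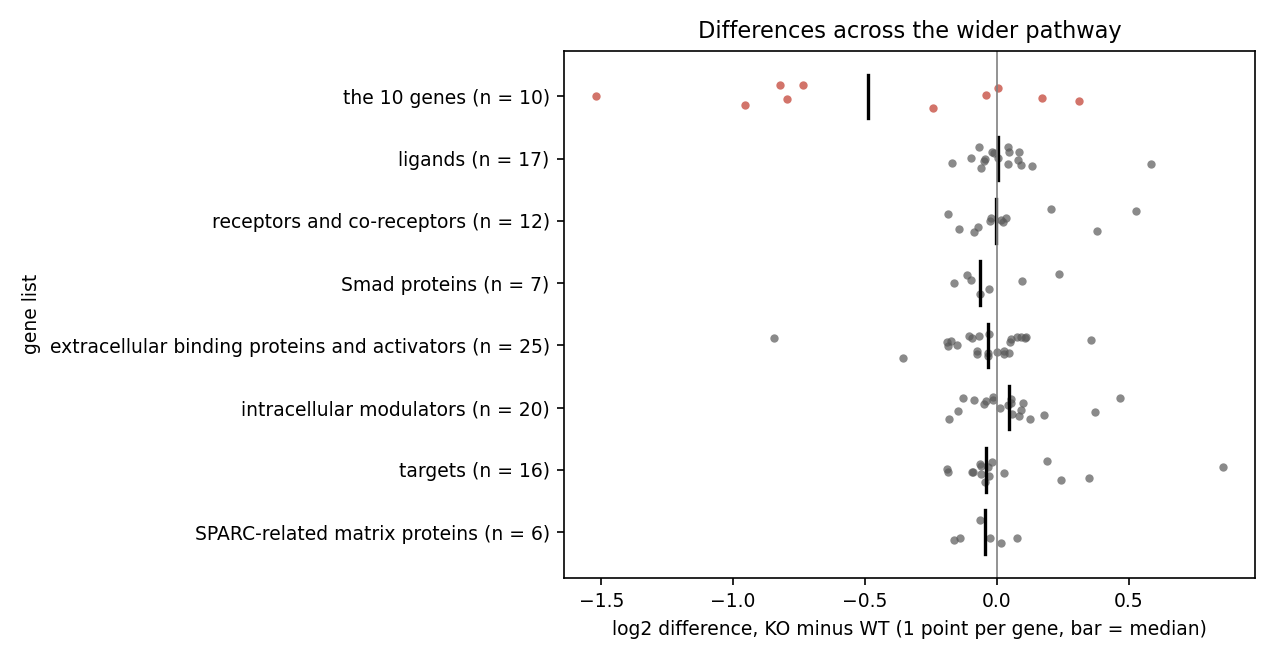
Log2 difference, KO minus WT (x axis), of the 10 genes (red, top row) and of 103 further genes of the pathway and of the SPARC family by role (grey, y axis), 1 point per gene, with the median of each list as a black bar. The medians of the 7 further lists lie between -0.06 and 0.05, and Lrrc32 at -0.85 and Tsc22d1 at 0.86 are the farthest points on each side among them.

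Of the 17 ligand genes measured, 14 were below the array median in all arrays and 0 passed (limma, 0 also at an unadjusted p under 0.05). Tgfb1, which encodes the main TGF-beta of blood cells, was bright, averaging 12.66 ± 0.06 in KO and 12.57 ± 0.11 in WT (SD, n = 3 each). Tgfb1 was singled out after its values were seen. Bmp4, a BMP ligand, measured 6.74, 7.91 and 7.72 in KO arrays, against 6.86, 6.69 and 7.06 in WT arrays. KO replicate 1 lay with the WT arrays and the other 2 KO arrays above them. The log2 difference of Bmp4 was 0.59 (SE 0.27, limma adjusted p = 0.577), and without KO replicate 1 it was 0.94 and passed (limma adjusted p = 0.0452). Tgfb3 and Tgfb2 were the lowest ligands by moderated t, at -0.17 and -0.10, and Gdf2, which encodes a ligand of endoglin, was at 0.14.

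Among 12 further receptors, the type II receptors Acvr2a and Bmpr2 had the highest moderated t. Acvr2b and Amhr2, also type II receptors and named after their values were seen, gave 0.04 and -0.09 on the log2 scale. Acvr2a, which binds activins and some BMPs, measured 9.14, 9.30 and 9.18 in KO arrays, against 8.77, 8.90 and 8.82 in WT arrays, without overlap. Its log2 difference was 0.38 (SE 0.08, limma adjusted p = 0.168). Bmpr2, the type II receptor for BMPs, measured 8.43, 8.83 and 8.56 in KO arrays, against 8.03, 7.81 and 8.40 in WT arrays, and the groups were separated by a narrow margin. Its log2 difference was 0.53 (SE 0.16, limma adjusted p = 0.357). Neither passed. Acvrl1, the type I receptor that works with endoglin in endothelium, gave -0.18 and Acvr1, another type I receptor, -0.14.

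The Smad genes differed little on the log2 scale. Smad3 was 0.24 higher in KO on that scale (SE 0.105, limma adjusted p = 0.56), Smad4, the shared partner, 0.10, Smad2 -0.10 and the inhibitory Smad6 -0.11. Of the 7 measured, 0 passed in limma (0 also at an unadjusted p under 0.05).

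The extracellular binding proteins and activators had 25 measured genes, 0 past the threshold in limma. At an unadjusted p under 0.05 there were 3, or 12.0%, against 9.22% of all probe sets. Lrrc32 encodes GARP, a membrane protein that docks latent TGF-beta on the cell surface. Lrrc32 measured 8.57, 8.07 and 8.76 in KO arrays, against 9.31, 9.63 and 8.99 in WT arrays, and the groups did not overlap. Its log2 difference was -0.85 (SE 0.20, limma adjusted p = 0.235), similar in size to that of Eng but with more spread. Of the latent TGF-beta binding proteins, Ltbp2 was at -0.35 (SE 0.10, limma adjusted p = 0.324) and Ltbp4 at 0.36 (SE 0.14, limma adjusted p = 0.467). Ltbp1 at 0.03 and Ltbp3 at 0.05, named after their values were seen, were nearly flat. Fstl3, a follistatin relative that traps activin, gave 0.10.

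Intracellular modulators had 20 measured genes, of which 0 passed in limma. At an unadjusted p under 0.05 there were 2 of the 20, a share near the 9.22% of all probe sets. The 2 genes were Pmepa1, described above, and Sptbn1, a spectrin that serves as a Smad adaptor. Sptbn1 measured 11.46, 11.65 and 11.55 in KO arrays, against 11.26, 11.19 and 11.10 in WT arrays. The Sptbn1 groups did not overlap, and the log2 difference was 0.37 (SE 0.08, limma adjusted p = 0.194). Strap, which binds the receptors and Smad7, gave -0.18, and Fkbp1a, which holds the type I receptor inactive, -0.13.

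Of 16 measured target genes 0 passed in limma. At an unadjusted p under 0.05 there were 3, or 18.8%, against 9.22% of all probe sets. Tsc22d1, a leucine zipper gene first found as a TGF-beta response gene, measured 8.52, 8.98 and 8.20 in KO arrays, against 7.81, 7.80 and 7.497 in WT arrays. All KO arrays were above all WT arrays, and the log2 difference was 0.86 (SE 0.18, limma adjusted p = 0.174). Junb, an AP-1 subunit, gave 0.24, Cdkn2b, a cell cycle inhibitor that TGF-beta induces, -0.19, and Itgae, an integrin that TGF-beta induces in T cells, -0.19.

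Eng and Sparc are also expressed by other cells of bone marrow, so marker genes of these were read on the same arrays. Fewer cells of a type and less RNA per cell cannot be told apart in sorted populations measured in bulk. Of 10 endothelial markers 9 were below the array median in all arrays, and their mean level was 6.90 to 7.004 in KO arrays and 6.81 to 7.12 in WT arrays. In KO 3 were higher and 7 lower, with log2 differences from -0.27 for Emcn to 0.23 for Pecam1, the 1 bright gene of the list, and a median of -0.05. Of 10 stromal and osteoblast markers 6 were below the array median in all arrays. The mean level of the 10 was 7.004 to 7.02 in KO arrays and 6.92 to 7.13 in WT arrays. In KO 3 were higher and 7 lower, from -0.34 for Alpl to 0.15 for Cxcl12, with a median of -0.05. Alpl averaged 12.51 in KO and 12.85 in WT, far above the next gene of the list, Col1a1, at 8.09 and 8.16. Which cells the Alpl signal came from was not tested. Of 6 megakaryocyte markers 5 were below the array median in all arrays, with a mean level of 6.44 to 6.59 in KO arrays and 6.37 to 6.56 in WT arrays, and 5 were higher and 1 lower in KO, from -0.13 for Itga2b to 0.09 for Ppbp. In these 3 lists 0 genes passed in limma and 1, the phosphatase gene Alpl, had an unadjusted p under 0.05, against 9.22% of all probe sets. The part of such cells in the differences of Eng and Sparc was not tested. Marker genes that did not pass are named in this and the next paragraph after their values were seen.

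Of 14 myeloid markers 3 passed as higher in KO in limma (Mpo, Elane and Ctsg, which encode primary granule proteins), against 0.0505% of all probe sets, and 11 did not pass. By their means 12 were higher and 2, Csf1r at -0.115 and Cd14 at -0.15, lower in KO, and 9 had all KO arrays above all WT arrays, against 5.94% of all probe sets. The mean level of the list was 8.14 to 8.20 in KO arrays and 7.32 to 7.76 in WT arrays. The part of these cells in the differences of the 10 genes was not tested. Stem and progenitor markers had a mean level of 6.43 to 6.56 in KO arrays and 6.41 to 6.61 in WT arrays, erythroid markers 7.30 to 7.42 in KO arrays and 7.21 to 7.44 in WT arrays, and T and NK cell markers 6.27 to 6.48 in KO arrays and 6.29 to 6.59 in WT arrays. No gene of these 3 lists passed in limma. At an unadjusted p under 0.05 there were 0 erythroid genes, 2 of 8 stem and progenitor genes and 3 of 8 T and NK cell genes, against 9.22% of all probe sets. They were Flt3 at -0.25, Procr at -0.205, Klrb1c, a receptor of NK cells, at -0.79 (limma adjusted p = 0.256), Cd8a at -0.22 and Nkg7, a cytotoxic granule gene, at 0.49 (limma adjusted p = 0.287). The KO and WT arrays of Klrb1c and of Nkg7 were apart, in opposite directions.

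**Figure D4:**
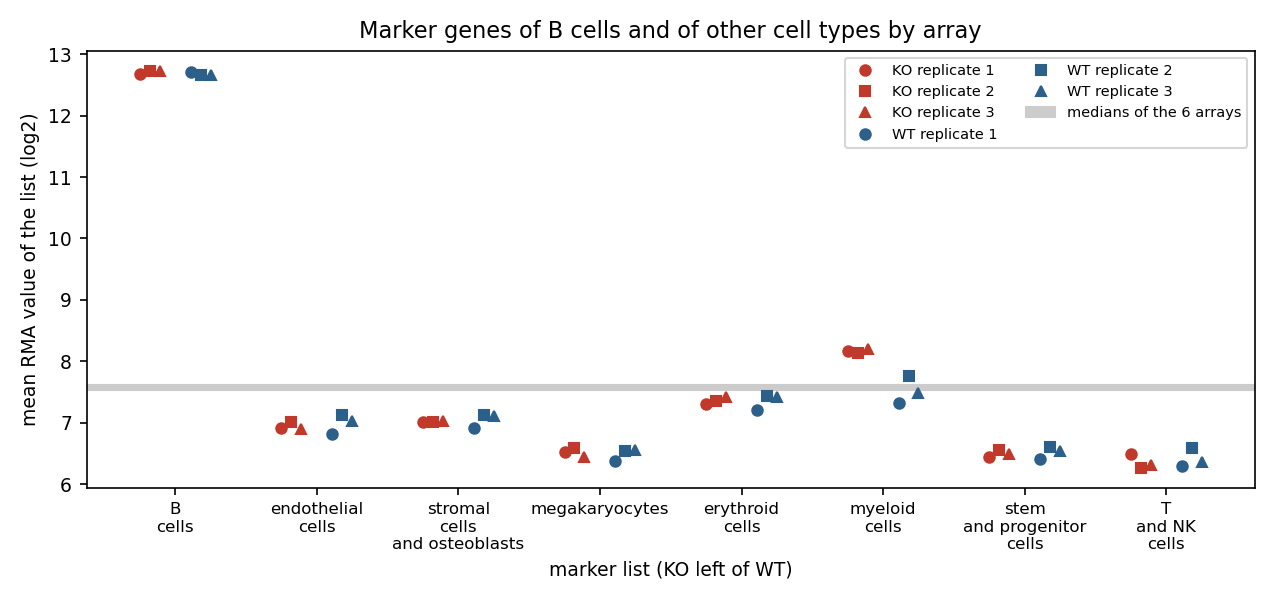
Mean RMA value on the log2 scale (y axis) of each marker list (x axis) by array, with KO arrays in red to the left of WT arrays in blue and the range of the array medians as a grey band. B cell markers lie between 12.66 and 12.73 in all arrays, and the myeloid list is the 1 list in which all KO arrays, at 8.14 to 8.20, lie above all WT arrays, at 7.32 to 7.76.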

How the data were processed

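RNA was measured on 1-colour Affymetrix whole-transcript arrays, from 100 ng of total RNA per sample, per the labels' protocols. The deposited log2 values were made by the authors with the RMA method, per the submitters' processing notes, which name Affymetrix Expression Console version 1.1. Its options and annotation are not given there. RMA removes shifts common to an array and compresses changes of dim transcripts.

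Of 35556 rows, the 21789 with exactly 1 gene symbol in the platform annotation were tested; 12146 were unnamed and 1621 had several symbols. By gene ID, 0 symbols needed an update. The groups were compared by the linear models of limma (version 3.58.1, R version 4.3.3; functions lmFit and eBayes, prior degrees of freedom 4.33, no covariate, no filter), with Benjamini-Hochberg adjustment over all these probe sets and a threshold of 0.05. The fit was tested on simulated data. Differences are KO minus WT. Where a gene has several probe sets, the brightest on average stands for it.

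The 10 genes and all lists were chosen with earlier results of these data known. Named genes are the 10, Jup, and the 4 most extreme genes by moderated t (2 on each side) of each pathway list, plus any past the threshold; others are said to be chosen after their values were seen. P-values measure the spread between samples labelled biological replicates. Same-numbered KO and WT arrays correlated at 0.104, -0.004 and 0.275 in their deviations from the group means, and differently numbered ones at -0.251 to 0.134. Such deviations cancel out within a group, so these values cannot settle whether the numbers are pairs. The main fit did not take them as pairs. Promoters are from RefSeq.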

Additional observations from a re-analysis of the deposited data

How the results depend on the processing

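The 39 named genes gave 577 values under alternatives, of which 549 kept direction and side of the threshold. Most of these are genes with no call to lose, so that count says little of the calls. Of 15 alternatives each, Crim1 lost its call in 3, Sparc in 4, Eng in 6 and Ldlrad4 in 8. With the replicate block, as the numbers are not shown to pair the samples, 1 of the 10 genes passed as lower (Crim1), with 8 probe sets higher and 11 lower in all. The number of the 10 that passed as lower ran from 0 to 4 with 1 array left out, against 4 with all. Probe sets higher in KO ran from 1 to 41 and lower from 3 to 41 with 1 array left out, against 11 and 15. Further pathway genes that passed as higher ran from 0 to 1. Ldlrad4 also lost its call with all rows of the table (limma adjusted p = 0.0823) and with a further quantile normalization (0.0563), leaving 3 of the 10. All rows of the table gave 59 lower, a trended and robust prior 17 higher and 23 lower, array weights 93 and 57, centring on the median 17 higher, quantile normalization 7 higher, and an adjusted p of 0.1 gave 25 higher and 33 lower. The median of the 10 genes was -0.242 with the filter on dim probe sets, which removes Bmpr1a, and -0.380 with array weights, where the cause was not tested. Signs turned for genes near 0: with 1 array left out Tgfbr2 ran from -0.103 (WT replicate 2) to 0.103 (WT replicate 1), and was -0.008 and -0.007 without KO replicates 2 and 3, Id3 ran from -0.437 to 0.015 (without WT replicate 1), and Spock2 from -0.068 (without WT replicate 1) to 0.068 and was -0.036 with array weights; the cause was not tested. Signal over background limits Bmpr1a, Id1 and the KO values of Sparc, all below the array medians.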
